A study of Mus musculus with 9 samples.

Results

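The MS4A genes encode membrane proteins of blood and immune cells, and 7 of the 23366 gene symbols in a deposited RNA sequencing table were followed here across tumour-derived CD8+ T cell libraries. The members are Ms4a4b and Ms4a6b, taken as the lymphoid pair, and Ms4a4c, Ms4a6c, Ms4a6d, Ms4a7 and Ms4a8a, taken as the myeloid set. They were picked by symbol with their levels in both genotypes already known. The difference between genotypes is therefore given for the members as a description, without a test.

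The libraries hold RNA of bulk CD8+ T cells from B16F10 tumours, a transplantable mouse melanoma, grown in C57BL/6 mice. The 5 WT libraries come from wild type mice and the 4 IL27ra KO libraries from mice that lack the receptor chain for interleukin 27, a cytokine of the IL-12 family. On average about 2000 cells were lysed per sample, and 5 uL of lysate entered an adapted SMART-Seq 2 protocol, which copies polyadenylated RNA along its length. The sources used here do not give the age or sex of the mice, the sort or gate, or the knockout allele. They also do not tie each library to its own mouse, so the spread behind each p-value is that of these libraries and may be technical. Values are FPKM, read fragments divided by transcript length and library size, scaled between libraries by the authors with TMM, and each library was estimated to hold 1744000 to 4048000 fragments from the spacing of its low values. All libraries are bulk, so fewer cells of a type and less RNA per cell cannot be told apart.

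Il27ra, the targeted gene, had 4.09, 6.50, 5.62 and 7.80 FPKM in IL27ra KO replicates 1 to 4. It had 25.7, 15.2, 14.4 and 15.8 FPKM in the libraries labelled WT replicates 1, 3, 4 and 5, but 5.14 FPKM in the library labelled WT replicate 2, inside the knockout range. The difference was -1.10 log2 units (two-sided exact permutation p = 0.0397 over 126 splits; limma adjusted p = 0.0996, and 0.00349 without the library labelled WT replicate 2). Besides that library, IL27ra KO replicate 4 stood apart from the other knockout libraries in its cell type markers. The values of both are therefore named below.

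Proteins of the family cross the membrane several times and act beside receptors of immune cells; Ms4a1 encodes CD20 of B cells and Ms4a2 the beta chain of the high-affinity IgE receptor of mast cells and basophils. In the mouse, Ms4a4b is made by T cells, where its product was linked to restrained proliferation and to signalling with the co-receptor GITR, and Ms4a6b is a related gene of lymphocytes. Ms4a4c is known as an interferon-induced gene, Ms4a6c, Ms4a6d and Ms4a7 are used as genes of monocytes and macrophages, and Ms4a8a as a gene of macrophages in tumours and other alternatively activated states.

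The members did not move as 1 block. Ms4a4b was the most abundant MS4A transcript in every library, with means of 233 ± 69.7 FPKM over the WT libraries (SD, n = 5) and 162 ± 84.3 FPKM over the knockout ones (SD, n = 4). Ms4a6b came next and was nearly level between the genotypes, with means of 76.2 ± 8.90 and 86.0 ± 19.3 FPKM in the same order. The 5 myeloid members were low in WT and higher in every IL27ra KO library than in any WT library. On the log2(FPKM + 1) scale their differences, IL27ra KO minus WT, ran from 1.52 for Ms4a4c to 2.83 for Ms4a7.

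**Figure D1:**
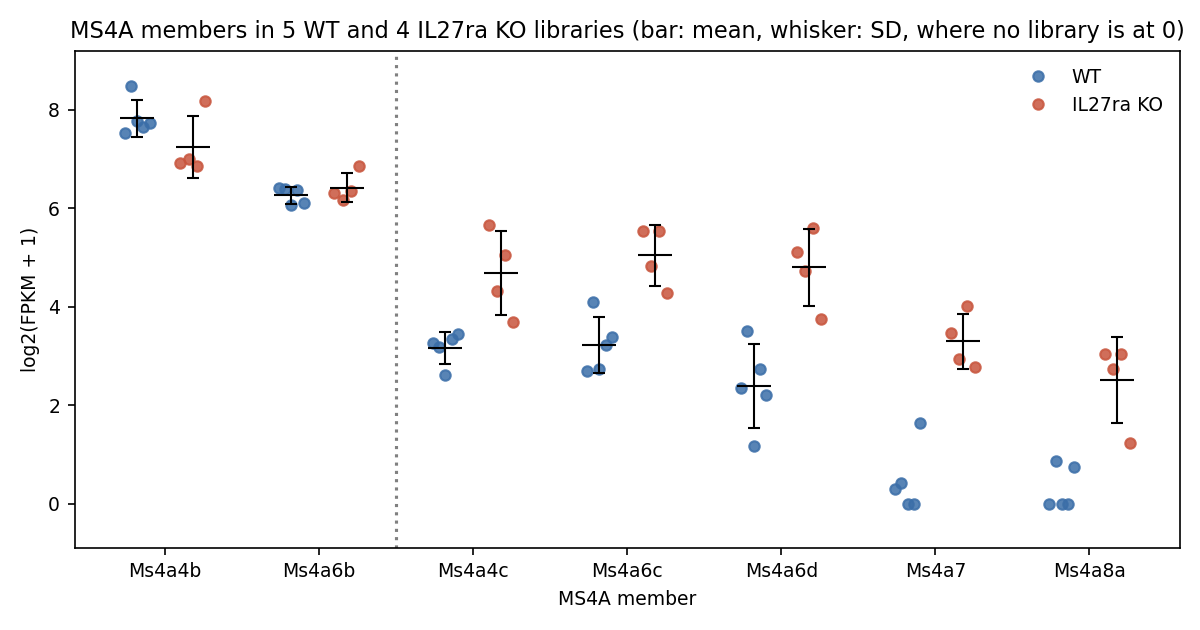
Level of each member in every library as log2(FPKM + 1), with 5 WT libraries in blue and 4 IL27ra KO libraries in red. Horizontal bars are group means and whiskers SDs, left out for WT Ms4a7 and Ms4a8a, which are listed at 0 in some libraries. The groups overlap for Ms4a4b and Ms4a6b, left of the dotted line, and are separate for the 5 members to its right.

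All 7 members passed the filter, a mean over all libraries of 1 FPKM or more. Across the 10374 genes that passed, limma called 440, or 4.24% of the genes tested (Benjamini-Hochberg adjusted p under 0.05). Of the members, 5 were called higher in IL27ra KO, beside 3.13% of all genes, and 0 were called lower, beside 1.11% of all genes. Scaling to CD8 T cell identity genes called 960 genes higher and 51 lower, and quantile normalization 291 and 167, against 325 and 115 here. The groups did not overlap for 5 members, all higher in IL27ra KO. Over all genes the groups did not overlap for 6.73%, with 4.26% higher and 2.47% lower. Because the members were picked with this contrast in view, nothing is read from these counts.

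The family lies in a gene cluster on mouse chromosome 19, and the members there do not sit apart by their pattern. In the RefSeq order of 21 MS4A genes (GRCm38.p6, another build than the mm9 of the deposited data), Ms4a4c, Ms4a4b, Ms4a6c and Ms4a6b follow each other as the genes 14 to 17, all on the plus strand. Along this stretch a myeloid member alternates with a lymphoid one. After Ms4a4d comes Ms4a6d, and Ms4a7 and Ms4a8a lie on the other side as genes 12 and 4, both on the minus strand.

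**Figure D2:**
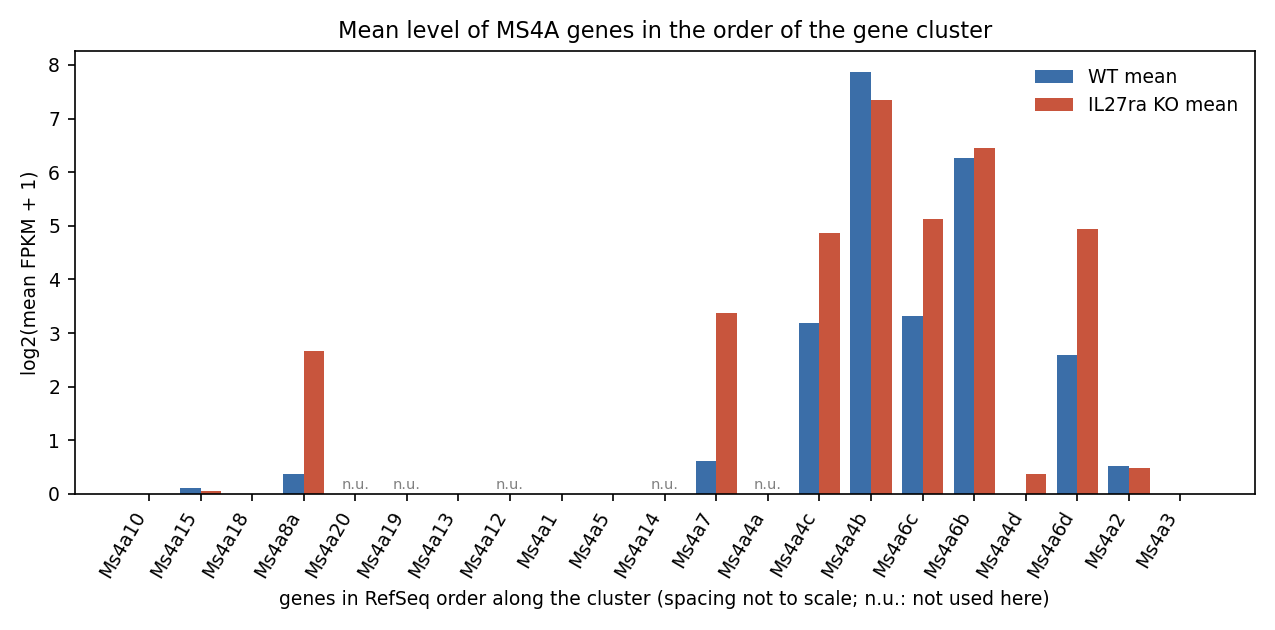
Mean level of the MS4A genes, as log2(mean FPKM + 1) for WT (blue) and IL27ra KO (red), in the order of the RefSeq gene cluster on chromosome 19, with spacing not to scale. The blue bar is taller for Ms4a4b and the red bar for its neighbours Ms4a4c and Ms4a6c; genes marked n.u. were not used here.

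The neighbours that differ in pattern are close copies of each other. Over aligned coding bases, Ms4a4b was 91.7% identical to Ms4a4c, and Ms4a6b was 85.8% identical to Ms4a6c and 81.2% to Ms4a6d (GENCODE release M21 transcripts). Ms4a4b and Ms4a6b, the lymphoid pair, were 56.6% identical, within the 54.2% to 60.8% of all pairs but these 3 and Ms4a6c with Ms4a6d (77.4%). Shared stretches were short in whole transcripts: 4.19% of the 50-base windows of Ms4a4b, 8.48% of Ms4a4c, 8.91% of Ms4a6b, 11.3% of Ms4a6c and 2.92% of Ms4a6d occurred in a transcript of another gene, and 0% of those of Ms4a7 and Ms4a8a. RSEM, the counting tool named by the submitters, divides reads that match several genes. The separate values of Ms4a4b and Ms4a4c, and of Ms4a6b, Ms4a6c and Ms4a6d, are therefore uncertain. The shares above do not bound this uncertainty, which weighs more on the lower copy. Ms4a4b, for example, was 21.2 to 44.0 times as high as Ms4a4c in WT libraries. The size of such an error was not tested.

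The copies extend into the promoters. RefSeq promoter windows of 300 bases, 250 before and 50 after the start site, were at hand for 6 of the 7 members (build GRCm38.p6); Ms4a6d is the member without one. The windows of Ms4a4b and Ms4a4c aligned over 177 bases with 89.8% identity, and those of Ms4a6b and Ms4a6c over 216 bases with 89.4% identity. No other pair of member windows aligned over more than 24 bases. The 4 windows are shown because each pair joins a lymphoid and a myeloid member; capitals mark runs of at least 8 bases shared within the pair, 131 bases in the first pair and 114 in the second.
Ms4a4b (chr19:11443308-11443607, plus strand): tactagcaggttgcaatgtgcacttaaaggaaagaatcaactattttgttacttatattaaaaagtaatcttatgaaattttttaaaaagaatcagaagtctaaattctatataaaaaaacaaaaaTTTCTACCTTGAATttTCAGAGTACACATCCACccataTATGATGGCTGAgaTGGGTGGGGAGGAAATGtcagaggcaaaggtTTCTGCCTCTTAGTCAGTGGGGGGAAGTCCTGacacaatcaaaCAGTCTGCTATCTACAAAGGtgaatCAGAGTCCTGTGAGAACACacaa
Ms4a4c (chr19:11407411-11407710, plus strand): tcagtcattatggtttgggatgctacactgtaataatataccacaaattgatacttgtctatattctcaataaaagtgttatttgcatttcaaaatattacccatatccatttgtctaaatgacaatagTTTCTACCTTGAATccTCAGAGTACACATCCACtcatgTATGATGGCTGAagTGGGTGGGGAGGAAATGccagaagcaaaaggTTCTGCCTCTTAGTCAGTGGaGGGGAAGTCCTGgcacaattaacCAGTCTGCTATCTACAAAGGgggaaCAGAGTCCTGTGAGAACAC
Ms4a6b (chr19:11518309-11518608, plus strand): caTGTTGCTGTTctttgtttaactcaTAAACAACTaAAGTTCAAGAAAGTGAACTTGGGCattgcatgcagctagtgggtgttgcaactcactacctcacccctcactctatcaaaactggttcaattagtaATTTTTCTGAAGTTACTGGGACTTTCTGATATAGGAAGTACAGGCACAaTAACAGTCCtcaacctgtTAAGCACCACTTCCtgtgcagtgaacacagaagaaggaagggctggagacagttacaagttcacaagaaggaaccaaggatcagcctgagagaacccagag
Ms4a6c (chr19:11469118-11469417, plus strand): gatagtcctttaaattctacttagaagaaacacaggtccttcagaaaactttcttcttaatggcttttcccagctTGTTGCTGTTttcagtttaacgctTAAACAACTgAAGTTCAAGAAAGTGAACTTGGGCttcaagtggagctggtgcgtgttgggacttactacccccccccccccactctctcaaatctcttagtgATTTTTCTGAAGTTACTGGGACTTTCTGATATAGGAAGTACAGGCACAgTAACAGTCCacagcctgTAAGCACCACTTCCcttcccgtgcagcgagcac
In the first pair the shared runs lie on both sides of the start site, with none in the part farthest upstream. In the second pair the longest shared run spans 48 bases.

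Motifs were searched on both strands of the 7 windows of these 6 members, with letters chosen after the sequences had been seen. AGGAAGT, a core bound by ETS factors, was found in the windows of Ms4a6b and Ms4a6c and in 9.35% of all 32851 promoter windows. It starts 86 bases upstream of the start site in Ms4a6b and 17 bases upstream in Ms4a6c, inside the shared run, and Ms4a6b has it once more on the opposite strand at 43 bases upstream. TGANTCA, a looser form of the AP-1 core that takes any middle base, was found in 7.81% of all windows. It read TGAATCA in a window of Ms4a4b (after the start site), TGATTCA in Ms4a7 and TGAGTCA in Ms4a8a. Of these only that of Ms4a8a has the C or G of the usual core in the middle. The interferon-response core bound by IRF factors, GAAA repeated after any 2 bases, was found in 0 of the 7 windows and 3.44% of all windows. These letters describe the windows shown and say nothing of binding.

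Ms4a4b, the T cell member, had 184, 356, 216, 199 and 210.1 FPKM in WT replicates 1 to 5 and 119, 127, 115 and 289 FPKM in IL27ra KO replicates 1 to 4. The library labelled WT replicate 2 was the highest of all 9, and IL27ra KO replicate 4 was second. The other 3 knockout libraries lay below every WT library. The mean difference was -0.59 log2 units (SE 0.30), and it was -0.91 (SE 0.25) without IL27ra KO replicate 4 and -0.43 (SE 0.26) without the library labelled WT replicate 2. After scaling each library to its CD8 T cell identity genes the difference was 0.07 (SE 0.26), a change of sign, while that scaling moved the median of all genes to 0.58, and Ms4a4b was at -0.51 relative to that median.

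Ms4a4b moved with the CD8 T cell identity genes from library to library. The mean log2 level of these 15 genes, such as Cd3e, Cd8a and Lck, was 6.03, 6.53, 6.05, 5.91 and 6.23 in WT replicates 1 to 5 and 4.98, 5.45, 5.25 and 6.26 in IL27ra KO replicates 1 to 4. Like Ms4a4b, it was highest in the library labelled WT replicate 2 and in IL27ra KO replicate 4. The log2 ratio of Ms4a4b to this list had an SD of 0.19 over the 9 libraries, against an SD of 0.56 for Ms4a4b itself and 1.82 for its ratio to macrophage and monocyte genes. These are descriptions over libraries that share a scaling, and a smaller SD means a more constant ratio.

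Among the 5717 other genes whose mean reached 5 FPKM, the 5 with the most constant ratio to Ms4a4b were Icos, Ctsw, Grap, Cd2 and Fyn. Icos is a co-stimulatory receptor of T cells, Ctsw encodes a cathepsin of cytotoxic lymphocytes, Grap an adaptor, Cd2 an adhesion receptor and Fyn a kinase of T cell receptor signalling. The SD of the log2 ratio was 0.11 for Icos, 0.16 for Ctsw and 0.17 for each of the others. Icos averaged 34.1 ± 9.38 FPKM over WT and 23.8 ± 13.1 FPKM over IL27ra KO libraries.

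Ms4a6b, the other lymphoid member, had 83.9, 82.6, 65.5, 81.4 and 67.5 FPKM in WT replicates 1 to 5 and 78.0, 71.0, 80.8 and 114 FPKM in IL27ra KO replicates 1 to 4. IL27ra KO replicate 4 was the highest library, and the other 8 libraries lay within a narrow band in which the genotypes overlap. The mean difference was 0.16 log2 units (SE 0.20), and 0.01 (SE 0.20) without IL27ra KO replicate 4. Scaled to the CD8 T cell identity genes it was 0.82 (SE 0.28), or 0.24 above the median of all genes under that scaling.

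Ms4a6b did not follow the CD8 T cell identity genes as Ms4a4b did. Its own SD over the 9 libraries was 0.23 log2 units, and the SD of its ratio was 0.52 to the CD8 T cell identity list, 1.41 to macrophage and monocyte genes and 0.60 to interferon-induced genes, each larger than that of the gene alone. The 5 genes with the most constant ratio to it were Tlk1, N4bp2l1, Synj2bp, Nr1h2 and Usp3, with SDs of 0.09 to 0.14, and Tlk1, a kinase of chromatin assembly, averaged 6.62 ± 0.58 and 7.56 ± 1.30 FPKM in WT and IL27ra KO.  The ratio of Ms4a4b to Ms4a6b was 2.20 to 4.31 in WT libraries and 1.42 to 2.52 in IL27ra KO libraries. The name lymphoid thus went with the T cell markers for Ms4a4b. Ms4a6b spanned only 6.06 to 6.85 log2 units, against 4.98 to 6.53 for the CD8 T cell identity list. For a gene that varies less than the lists, a ratio SD above its own is built in. These SDs therefore cannot tell whether Ms4a6b follows the T cell or the macrophage list. Like the T cell list, it was highest among the knockout libraries in IL27ra KO replicate 4.

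**Figure D3:**
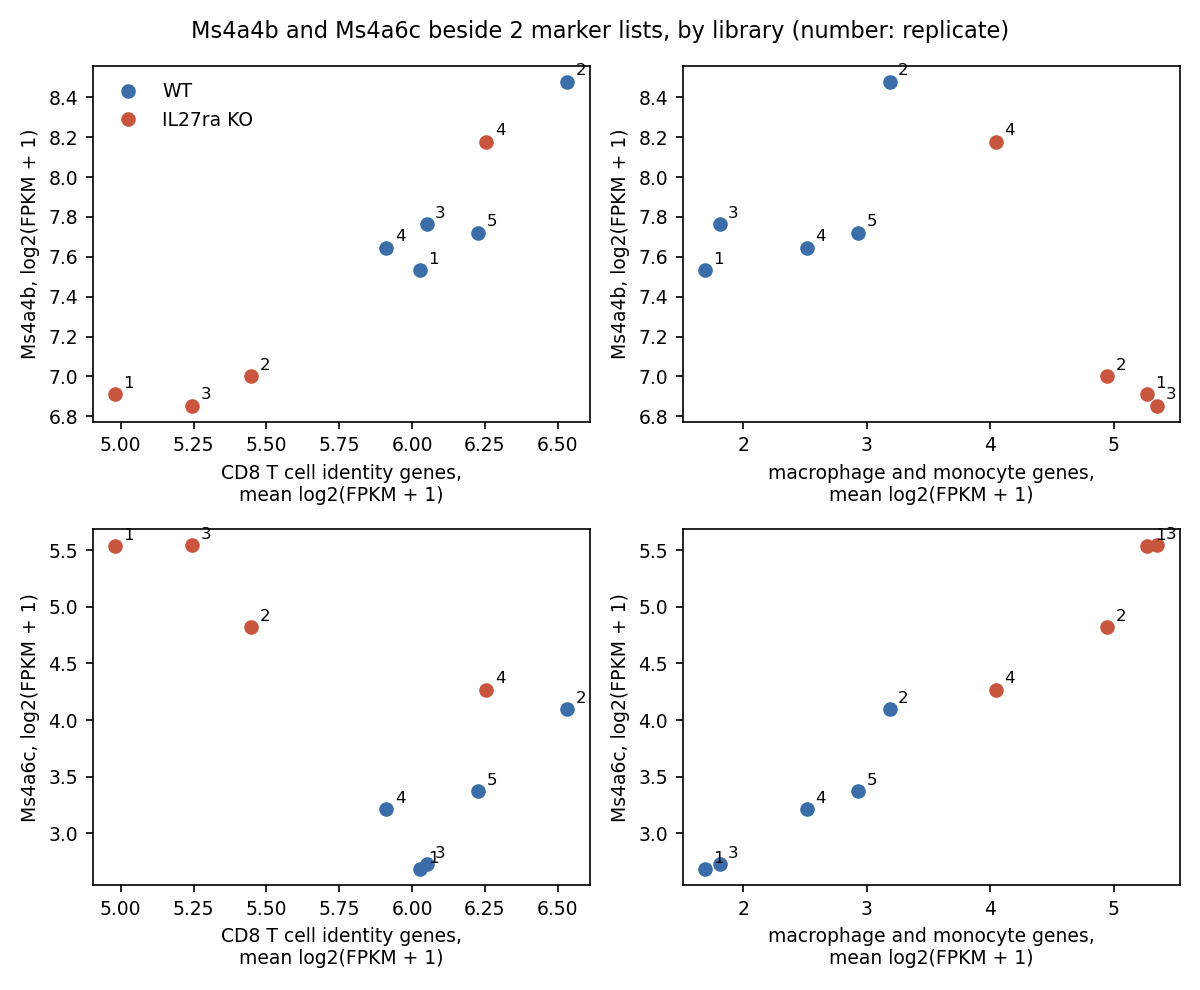
Log2 level of Ms4a4b (top) and Ms4a6c (bottom) in each library against the mean log2 level of CD8 T cell identity genes (left) and of macrophage and monocyte genes (right), WT in blue and IL27ra KO in red, numbered by replicate. Ms4a4b is highest in WT replicate 2 and IL27ra KO replicate 4, which also have the highest CD8 T cell identity levels (6.53 and 6.26), while Ms4a6c is highest in IL27ra KO replicates 1 and 3, which have the highest macrophage levels (5.27 and 5.35).

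Ms4a4c, the near copy of Ms4a4b, had 8.58, 8.09, 5.08, 9.12 and 9.89 FPKM in WT replicates 1 to 5 and 49.6, 19.1, 32.3 and 12.0 FPKM in IL27ra KO replicates 1 to 4. The groups did not overlap, and IL27ra KO replicate 1 was highest and replicate 4 lowest among the knockout libraries. The mean difference was 1.52 log2 units (SE 0.33). Ms4a4b was 21.2 to 44.0 times as high as Ms4a4c in WT libraries, 2.41 to 6.67 times in IL27ra KO replicates 1 to 3, and 24.1 times in IL27ra KO replicate 4, inside the WT range. Over the 9 libraries the SD of the ratio of Ms4a4c was 0.44 to interferon-induced genes and 0.48 to dendritic cell genes, 0.70 to macrophage and monocyte genes and 1.46 to CD8 T cell identity genes. Within the WT libraries it was 0.25 to the interferon-induced, 0.39 to the CD8 T cell identity, 0.55 to the dendritic cell and 0.57 to the macrophage list. Within the knockout libraries it was 0.43 to the interferon-induced, 0.36 to the dendritic cell, 0.43 to the macrophage and 1.39 to the CD8 T cell identity list. The interferon-induced list was thus nearest of these in WT, but not in IL27ra KO.

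Ms4a6c, a monocyte and macrophage gene, had 5.43, 16.1, 5.64, 8.30 and 9.38 FPKM in WT replicates 1 to 5 and 45.4, 27.3, 45.6 and 18.3 FPKM in IL27ra KO replicates 1 to 4. The groups came close without overlapping, through the library labelled WT replicate 2 and IL27ra KO replicate 4. The mean difference was 1.82 log2 units (SE 0.33). Against its near copy, Ms4a6b was 5.14 to 15.4 times as high in WT libraries and 1.72 to 6.26 times in IL27ra KO libraries. The SD of the log2 ratio of Ms4a6c was 0.40 to the macrophage and monocyte list and 0.17 to 7 dendritic cell genes, which include the class II genes Cd74 and H2-Ab1 of both cell types, against 1.11 for Ms4a6c alone. These SDs over all 9 libraries carry the genotype difference known when the members were picked. Within WT and within IL27ra KO libraries the ratio SDs were 0.22 and 0.18 to the first list, and 0.20 and 0.16 to the second.

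The 5 genes most constant relative to Ms4a6c were H2-DMa, which loads peptides on MHC class II, Naaa, a lysosomal amidase, Grn, which encodes progranulin, Ifitm2, an interferon-induced membrane protein, and Ctsc, a lysosomal peptidase. Their SDs ran from 0.24 to 0.31 over all 9 libraries, so this ranking also carries the genotype difference. Grn averaged 13.3 ± 4.44 FPKM over WT and 48.8 ± 17.0 FPKM over IL27ra KO libraries, and H2-DMa 6.67 ± 3.45 and 21.6 ± 10.1 FPKM.

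Ms4a6d, a macrophage gene, had 4.08, 10.3, 1.25, 5.68 and 3.61 FPKM in WT replicates 1 to 5 and 33.8, 25.5, 47.7 and 12.5 FPKM in IL27ra KO replicates 1 to 4. The groups did not overlap. The 4 IL27ra KO libraries stood in the same order as for Ms4a6c, and the library labelled WT replicate 2 was again highest in its group. The mean difference was 2.41 log2 units (SE 0.43). The ratio of Ms4a6d to Ms4a6c had an SD of 0.51 over the 9 libraries, and that of Ms4a6d to Ms4a6b, its closer copy, an SD of 1.44.

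Ms4a7, a marker of macrophages, had 0.23, 0.34, 0, 0 and 2.09 FPKM in WT replicates 1 to 5 and 10.1, 6.64, 15.1 and 5.85 FPKM in IL27ra KO replicates 1 to 4. The groups did not overlap, and WT replicates 3 and 4 are listed at 0. By the estimated depth and transcript length, the values of WT replicate 1 and the library labelled WT replicate 2 stand for about 1.2 fragments each, and that of WT replicate 5 for about 13.3. Its difference of 2.83 log2 units (SE 0.35) was 4.81 with a pseudocount of 0.1 and 1.35 with a pseudocount of 5, so its size depends on the constant added. The 5 genes most constant relative to Ms4a7 had SDs of 0.39 to 0.61 over all 9 libraries, a ranking that carries the genotype difference. They include Emr1, which encodes the macrophage marker F4/80, the chemokine gene Ccl12 and Csf2ra, a receptor for GM-CSF. The others are the chemokine receptor gene Ccr2 and F13a1, a coagulation factor of macrophages. Of these 5 genes, 2 remained with a pseudocount of 0.1 and 2 with a pseudocount of 5, so this ranking also depends on the constant.

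Ms4a8a, the gene of alternatively activated macrophages, had 0, 0.81, 0, 0 and 0.67 FPKM in WT replicates 1 to 5 and 7.18, 5.68, 7.27 and 1.33 FPKM in IL27ra KO replicates 1 to 4. The groups did not overlap, and 3 WT libraries are listed at 0. The 2 WT values above 0 stand for about 2.0 and 2.9 fragments, and IL27ra KO replicate 4, at about 5.0 fragments, was lowest of its group. The difference was 2.19 log2 units (SE 0.37), 4.29 with a pseudocount of 0.1 and 0.92 with a pseudocount of 5. Its ratio to the macrophage and monocyte list had an SD of 0.34 over the 9 libraries, against 1.31 for Ms4a8a itself. Both are set in part by the added constant, and the 1.31 carries the genotype difference known when the members were picked. The ratio had an SD of 0.35 within WT and 0.29 within IL27ra KO libraries.

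The makeup of the summed MS4A signal differed more than its total. The summed FPKM of all MS4A symbols was 333 ± 79.5 in WT and 356 ± 71.2 in IL27ra KO. Ms4a4b made up 64.1% to 75.0% of it in WT. Its share was 33.3% to 44.9% in IL27ra KO replicates 1 to 3, and 63.5% in replicate 4. The 5 myeloid members made up 4.07% to 8.45% of the WT sums, and 42.5%, 29.7%, 43.1% and 11.0% of those of IL27ra KO replicates 1 to 4, while the share of Ms4a6b was 23.6% ± 4.57 and 24.1% ± 1.21.

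**Figure D4:**
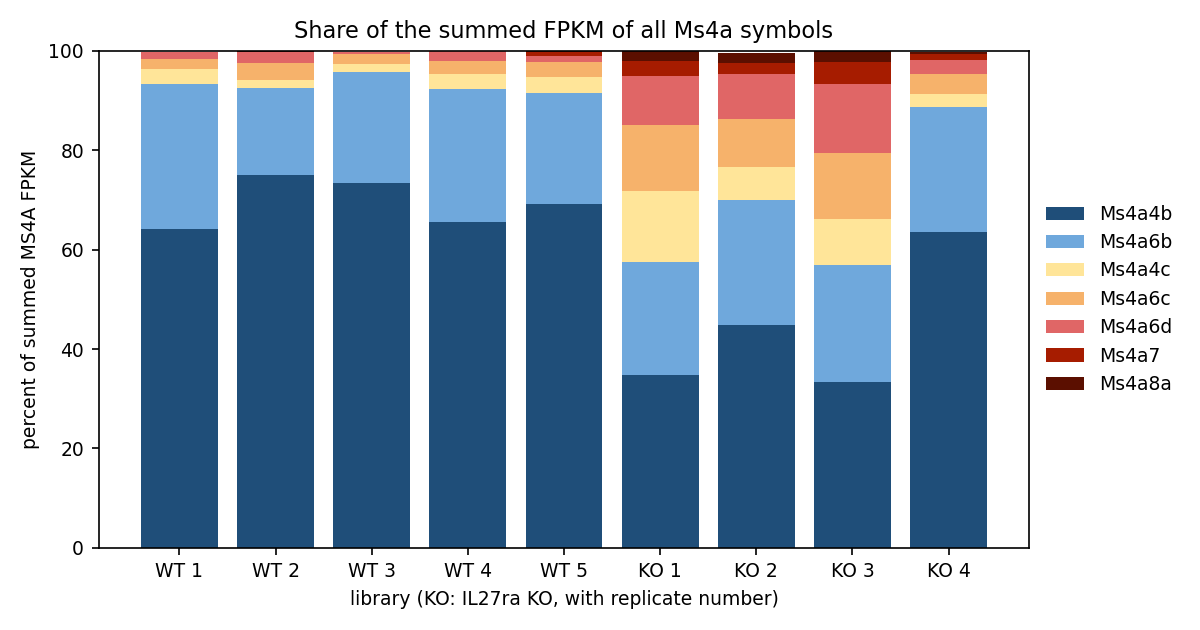
Percent of the summed FPKM of all MS4A symbols that each member made up, 1 bar per library. Ms4a4b takes 64.1% to 75.0% of the WT bars and 33.3% to 44.9% of the first 3 IL27ra KO bars, and IL27ra KO replicate 4, at 63.5%, lies just below the WT range.

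The SD of the log2 ratio was computed for the 21 pairs of members, and over all 9 libraries it carries the genotype difference by which the sets were formed. The 10 pairs within the myeloid set had SDs of 0.38 (Ms4a6c and Ms4a8a) to 0.87 (Ms4a4c and Ms4a7), and Ms4a4b with Ms4a6b had 0.53. The 10 pairs that joined the sets had 0.99 to 2.00, among them the near copies Ms4a4b with Ms4a4c at 1.46 and Ms4a6b with Ms4a6c at 1.09. Within WT libraries alone the kinds of pair overlapped, with 0.52 to 0.72 for the 3 near-copy pairs and 0.30 to 1.05 for the myeloid pairs. Within IL27ra KO libraries alone the near-copy pairs had 0.85 to 1.42 and the myeloid pairs 0.27 to 0.60. Ratios with Ms4a7 and Ms4a8a, listed at 0 in some WT libraries, depend on the added constant: with a pseudocount of 0.1, chosen after seeing the data, the myeloid pairs ran from 0.50 to 2.08 over the 9 libraries. Without those genes, the 3 myeloid pairs ran from 0.46 to 0.74, and from 0.50 to 0.89 with that pseudocount, against 1.16 to 1.63 for the near copies.

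**Figure D5:**
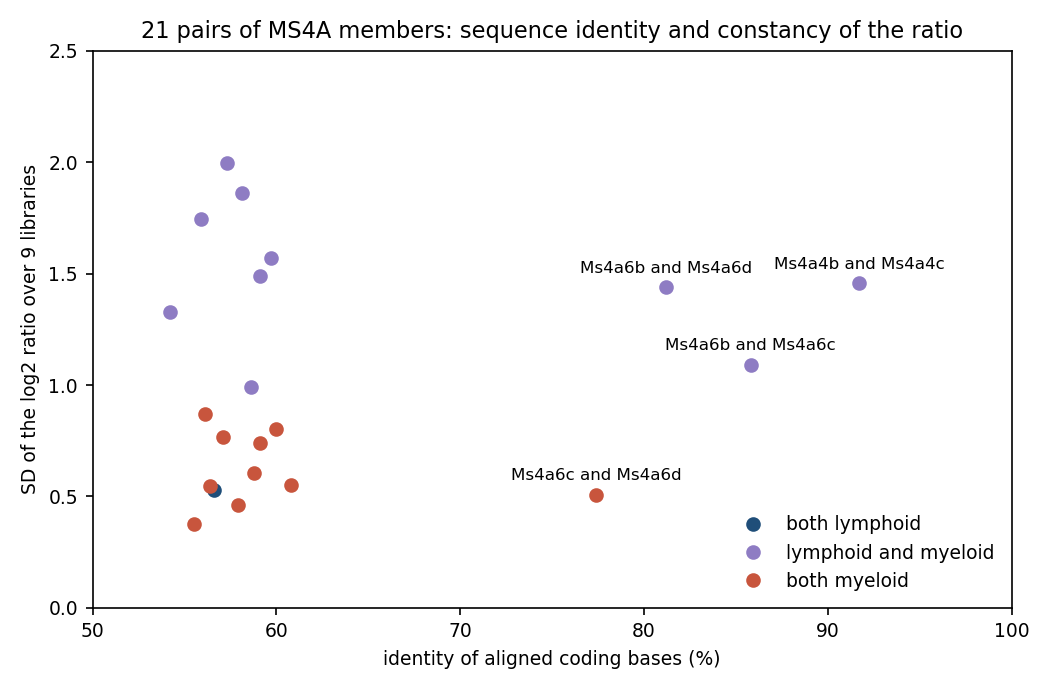
Each point is 1 of the 21 pairs of members, placed by the identity of their aligned coding bases (%) and by the SD of their log2 ratio over the 9 libraries. The 3 pairs above 80% identity join a lymphoid and a myeloid member and have SDs of 1.09 to 1.46, whereas the 10 purely myeloid pairs lie between 0.38 and 0.87; within WT libraries alone, not plotted, these ranges overlap (0.52 to 0.72 and 0.30 to 1.05).

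Genes of the family outside the 7 members were tested, since they had no part in the choice. The table has 9 further Ms4a symbols, and 0 of them passed the filter. Ms4a1, Ms4a3, Ms4a5, Ms4a10, Ms4a13 and Ms4a18 are listed at 0 in all 9 libraries. Ms4a2 had 0.18 to 0.71 FPKM in WT and 0.21 to 0.71 in IL27ra KO, Ms4a15 reached 0.21 FPKM and Ms4a4d 0.60 FPKM. Tmem176a and Tmem176b, which encode related proteins of myeloid and dendritic cells, were both tested.

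Tmem176b had 17.0, 22.5, 11.0, 16.1 and 10.6 FPKM in WT replicates 1 to 5 and 63.8, 51.3, 60.7 and 17.4 FPKM in IL27ra KO replicates 1 to 4. It rose by 1.48 log2 units (SE 0.35; limma, adjusted p = 0.0282). Tmem176a had 3.80, 7.04, 3.22, 6.81 and 4.33 FPKM in the WT libraries and 23.8, 21.2, 15.9 and 6.76 FPKM in the knockout ones, and rose by 1.49 (SE 0.32; adjusted p = 0.0177). Both were higher in 3 of 4 knockout libraries than in any WT library, and IL27ra KO replicate 4 lay inside the WT range. Without IL27ra KO replicate 1, 2 or 3 neither passed (adjusted p = 0.0629 to 0.0776 for Tmem176a and 0.0986 to 0.121 for Tmem176b), and Tmem176b was also lost without WT replicate 1, 3 or 5 (0.0530, 0.0702 and 0.0739). Without IL27ra KO replicate 4 both passed, with 1.90 for Tmem176b and 1.85 for Tmem176a (adjusted p = 0.000652 and 0.00088).

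Marker genes of other cells moved with the myeloid members. Of 19 macrophage and monocyte genes tested, 17 rose, 0 fell and 2 did not pass, with a median difference of 2.64 log2 units against 0.02 for all genes (limma, adjusted p under 0.05). Their mean log2 level was 1.69, 3.19, 1.81, 2.52 and 2.93 in WT replicates 1 to 5 and 5.27, 4.95, 5.35 and 4.05 in IL27ra KO replicates 1 to 4, the same extremes as for Ms4a6c. The summed FPKM of the 20 listed genes was 315 to 615 in WT and 1059 to 1953 in IL27ra KO. The most abundant were Ly6c2, which CD8 T cells also make (242 ± 55.0 and 352 ± 146 FPKM, adjusted p = 0.445), and Apoe, a lipid carrier (86.2 ± 36.0 and 394 ± 228 FPKM, adjusted p = 0.0195). Apoe no longer passed after WT replicate 3, or any of IL27ra KO replicates 1 to 3, was left out (adjusted p = 0.0517 to 0.0801). The part of these cells in the member values was not tested.

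The other lists were less uniform. Of 7 dendritic cell genes tested, 5 rose and 2 did not pass, with a median of 1.84. The list summed to 104 to 416 FPKM in WT and 408 to 1445 FPKM in IL27ra KO. The number that rose was 1 without IL27ra KO replicate 1, 2 or 3, and 3 without WT replicate 1 or 3. Those that rose include Cd74 and H2-Ab1, class II genes shared with macrophages. Ccr7 and Zbtb46 did not pass, and their groups overlapped. Flt3, Xcr1, Clec9a, Batf3 and Siglech averaged under 1 FPKM over the libraries and were not tested. Of 19 interferon-induced genes, 10 rose and 9 did not pass (median 1.06; summed FPKM 98.2 to 131 and 146 to 285), with 6 rising without WT replicate 1, 3 without IL27ra KO replicate 1 and 2 without IL27ra KO replicate 3. Irf7, a transcription factor of the interferon response, rose by 1.33 (adjusted p = 0.0150; 0.0520 and 0.0629 without IL27ra KO replicate 1 and 3). Of 15 CD8 T cell identity genes, 2 fell, 0 rose and 13 did not pass (median -0.72; summed FPKM 1133 to 1790 and 539 to 1397). The number that fell was 8 without IL27ra KO replicate 4, 1 without WT replicate 1, 2 or 4, and 0 after leaving out WT replicate 3 or 5, or any of IL27ra KO replicates 1 to 3. Cd3e, a CD3 chain, fell from 222 ± 50.2 to 102 ± 50.3 FPKM (adjusted p = 0.0317; 0.0607 to 0.144 after leaving out WT replicate 3, 4 or 5, or any of IL27ra KO replicates 1 to 3) under limma, and no longer passed with quantile normalization (0.0576), the total without Rn45s (0.0569), no filter (0.0707) or scaling to CD8 T cell identity genes (0.158). Cd8b1 differed by -0.55 (limma adjusted p = 0.443), and by 0.11 when scaled to CD8 T cell identity genes. Cd3e and Cd8b1 are among the 15 genes that set this scaling, so an upward shift under it was built in.

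Lists for which other MS4A genes are the usual markers were low, with most of their genes near 0. Of 11 listed B cell genes, Cd79b was tested and did not pass, and their summed FPKM was 0.90 to 3.20 in WT and 1.36 to 5.40 in IL27ra KO, beside Ms4a1 at 0. The most abundant, Cd79b and Cd22, had means of 1.78 and 0.74 FPKM in IL27ra KO. Of 12 mast cell and basophil genes, Fcer1a, the alpha chain of the IgE receptor, is listed at 0 throughout, and their summed FPKM was 4.24 to 8.08 in WT and 1.09 to 1.99 in IL27ra KO. Kit was the 1 gene tested and made up most of each WT sum, so the lower sums largely follow this gene. It had 3.68, 4.25, 3.97, 4.11 and 7.21 FPKM in WT replicates 1 to 5 and 0.20, 1.24, 0.91 and 0.50 FPKM in IL27ra KO replicates 1 to 4. Kit fell by 1.73 (limma adjusted p = 0.00136), while Tpsab1 had means of 0.45 and 0.09 FPKM.

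Of 2 neutrophil genes tested, Cxcr2 and Csf3r, neither passed (adjusted p = 0.828 and 0.0718; Csf3r passed without the library labelled WT replicate 2 or IL27ra KO replicate 4, at 0.0450 and 0.0184), and the list summed to 4.36 to 8.89 FPKM in WT and 7.13 to 11.5 FPKM in IL27ra KO. Of 7 NK cell genes, several of which CD8 T cells or macrophages also make, 2 rose and 5 did not pass (median -0.05; summed FPKM 309 to 883 and 394 to 780). Nkg7 differed by -1.17 (adjusted p = 0.103; 0.0167 without IL27ra KO replicate 4, 0.0239 with quantile normalization and 0.0478 when scaled to the total without Rn45s) and Fcer1g, shared with macrophages, rose by 2.42 (adjusted p = 0.00729). Of 11 melanoma genes 0 passed (median 0.55; summed FPKM 451 to 1486 and 718 to 1573), with Dct and Pmel differing by 0.52 and 0.58 (adjusted p = 0.512 and 0.575).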

How the data were processed

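The 9 RNA sequencing libraries were grouped by labelled genotype. Per the labels, the authors deposited 1 FPKM value per gene and library, estimated by RSEM and scaled by TMM, a scaling that rests on most genes being level. Tools in the submitters' processing notes are TopHat, RSEM and DESeq, with build mm9 and no versions or roles. PCR copies are not distinguished from separate molecules. The table has 0 columns of other samples.

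From the FPKM, log2(FPKM + 1) was computed, genes averaging 1 FPKM or more were kept, and genotypes were tested by limma 3.58.1 (R 4.3.3; eBayes with a trend, Benjamini-Hochberg adjustment over all genes, threshold 0.05), checked on simulated data. FPKM are not counts, so no count test was used. Differences are IL27ra KO minus WT on that scale, where changes of low genes come out too small, and SEs are limma's. Single values were compared by an exact permutation test over 126 splits. Depth was estimated from low FPKM of 2117 genes with 1 GENCODE M21 transcript. Of the 312 to 403 low values per library, 66.3% to 71.5% lay within 0.1 of a whole multiple of 1 fragment. An even spread would give 20%, but the fragment size was chosen to match these same values, which raises the share. Lengths come from another build, so these depths are estimates. Alignments used Biopython 1.88.

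Named genes were the members, other MS4A symbols with Tmem176a and Tmem176b, the 5 genes of most constant ratio to Ms4a4b, Ms4a6b, Ms4a6c and Ms4a7, the 2 most abundant genes of each marker list, and Il27ra; other genes named as examples were picked afterwards, and 1 gene of this rule is not reported here. Members and lists were chosen with earlier results of these data known.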

Additional observations from a re-analysis of the deposited data

Results flagged for a closer look

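In 18 groups of values (7 members, Tmem176a and Tmem176b, each in 2 genotypes), 5 had a library set apart from the rest of its group by Dixon's criterion, which chance alone meets in about 1 in 20 groups. Ms4a4b was high at 356 FPKM in the library labelled WT replicate 2 and at 289 FPKM in IL27ra KO replicate 4. Ms4a7 was high at 2.09 FPKM in WT replicate 5. Ms4a8a was low at 1.33 FPKM and Tmem176b low at 17.4 FPKM in IL27ra KO replicate 4, which also had the lowest macrophage and monocyte level of its group (4.05).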

How the results depend on the processing

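The differences of Ms4a4c, Ms4a6c, Ms4a6d, Ms4a7 and Ms4a8a kept their direction in all alternatives run, and Ms4a4b was below 0 in all but 1. With libraries scaled by CD8 T cell identity genes, Ms4a4b was at 0.071, Ms4a6b at 0.82, Ms4a4c at 2.15 and Ms4a6c at 2.45. Cd8b1, itself in the scaling list, was at 0.11 and below 0 otherwise. Under this scaling 1011 genes were called, 95.0% of them higher against 73.9% in the reported fit. Quantile normalization gave 63.5% higher. Pseudocounts of 0.1 and 5 gave 4.81 and 1.35 for Ms4a7 and 4.29 and 0.92 for Ms4a8a. A filter at 5 FPKM left 219 calls, 3 of them members, since Ms4a7 and Ms4a8a were no longer tested. With no filter, 0 of Tmem176a and Tmem176b passed (adjusted p = 0.0539 and 0.0724; unadjusted p in the reported fit 0.00045 and 0.000911), and Ms4a4c was not called. Leaving out 1 library gave 227 to 639 calls over all genes, 4 to 5 among members (4 without IL27ra KO replicate 1 or 3, through Ms4a4c) and 0 to 2 of Tmem176a and Tmem176b. The ranges were -0.91 to -0.43 for Ms4a4b, 0.01 to 0.24 for Ms4a6b, 1.19 to 1.85 for Ms4a4c, 1.65 to 2.08 for Ms4a6c, 2.10 to 2.76 for Ms4a6d, 2.59 to 3.12 for Ms4a7 and 2.01 to 2.62 for Ms4a8a. With the replicate number as a block 273 genes and 0 of Tmem176a and Tmem176b passed (limma adjusted p = 0.0589 and 0.0686). Same-numbered libraries had residual correlations of -0.147 to 0.003. These show no sign of pairing but cannot exclude it, and the labels do not say whether the numbers pair the libraries. Apoe was lost with no filter (adjusted p = 0.0599) and Irf7 under the block (0.0571), while Ly6c2 and Csf3r passed when scaled by CD8 T cell identity genes (0.0095 and 0.0153). Of the 5 genes nearest to a member, 1 to 5 were shared when a library was left out, and 2 to 5 under the other pseudocounts. Beyond these, the cause was not tested. Values under 1 FPKM rest on a few fragments.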
